A study of Saccharomyces cerevisiae with 17 samples.

Results

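The genes described here encode the factors that start, extend and end protein synthesis in budding yeast (Saccharomyces cerevisiae), together with the poly(A)-binding protein PAB1, the helicase DED1 and the ribosome-bound proteins STM1 and ASC1. They were chosen as a list of 37 systematic names, and all 37 had a row among the 5326 genes of the deposited table. Steady-state RNA was depleted of rRNA and sequenced from haploid MATa cells of the BY4741 background in mid-log phase in YPD at 30 °C. The groups were a deletion of set2 (set2Δ), the histone mutant H3K36A, a deletion of eaf3 (eaf3Δ), and wild type, with 2 biological replicate libraries each, and per the labels all of them carried his3, leu2, met15 and ura3 mutations. Set2 is the methyltransferase for lysine 36 of histone H3, the H3K36A mutant carries alanine at that position, and Eaf3 recognises the methylated residue through its chromodomain. The labels do not say how the deletions were made or which H3 gene copies carried the alanine.

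Translation begins when the cap-binding complex eIF4F and poly(A)-binding protein bring an mRNA to the small ribosomal subunit, which carries eIF1, eIF1A, eIF3 and the ternary complex of eIF2, GTP and initiator tRNA. The exchange factor eIF2B recharges eIF2 with GTP, eIF5 and eIF5B act when the start codon is met and the subunits join, eEF1A, eEF2, the fungal factor eEF3 and eIF5A serve elongation, and eRF1 and eRF3 release the finished protein. In fast-growing yeast the elongation factor mRNAs are among the most abundant of the cell.

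Each value below is the authors' mean RPKM of a genotype (reads scaled by gene length and by sequencing depth). The spread between the replicates is therefore not known here, no difference was tested, and the read depth behind each value is unknown. SET2, EAF3, HHT1 and HHT2 are not among the genes listed, so the genotypes could not be read from the altered genes. Among the marker genes, LEU2, URA3 and MET15 (also called MET17) are not listed either, while HIS3 had 72.1, 141 and 69.4 RPKM in set2Δ, H3K36A and eaf3Δ, against 61.2 RPKM in wild type. Most genes had a lower RPKM in the mutants: among the 3657 genes with a mean of at least 10 RPKM over the 4 genotypes, the median log2 ratio to wild type, taken after adding 1 RPKM to both values, was -0.23 in set2Δ, -0.32 in H3K36A and -0.36 in eaf3Δ. Small RNA genes took 27.1%, 29.9% and 28.2% of the RPKM sum in the 3 mutants, against 22.7% in wild type. After rescaling without these genes the median log2 ratio, over the 3618 genes then compared, was -0.25, -0.27 and -0.31 in set2Δ, H3K36A and eaf3Δ. Ratios are therefore given relative to the median gene ("relative log2") unless the deposited scale is named. All 37 factor genes were among the 3657 compared.

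The genes for the abundant elongation factors, EFB1 apart, stayed near or above the median gene. Certain genes for initiation subunits lay well below the median gene in every mutant. So did the termination gene SUP35, at a relative log2 of -0.77, -1.45 and -0.93 in set2Δ, H3K36A and eaf3Δ. Relative to the median gene, 3 of 37 lay at least 2-fold lower in set2Δ (TIF35, NIP1 and GCD2), against 2.9% of all genes compared. In H3K36A there were 6 of 37 (EFB1, TIF4631, TIF35, NIP1, SUP35 and GCD2), against 9.68% of all genes. In eaf3Δ there were 4 of 37 (TIF4632, TIF35, NIP1 and GCD2), against 7.03%. None of the 37 was at least 2-fold higher in any mutant, where 1.83%, 6.95% and 3.55% of all genes were, in the order set2 deletion, H3K36A and eaf3 deletion. On the deposited scale 4, 9 and 7 of the 37 were at least 2-fold lower in those mutants, against 6.43%, 18% and 16% of all genes. The added genes on that scale were TIF4632 in set2Δ, TIF4632, TIF11 and GCD6 in H3K36A, and EFB1, TIF11 and SUP35 in eaf3Δ.

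The median relative log2 of the 37 was -0.06 in set2Δ, -0.39 in H3K36A and -0.03 in eaf3Δ, where the median of all genes compared is 0 by construction. On the deposited scale the medians of the 37 were -0.29, -0.70 and -0.39. In H3K36A, 26 of the 37 lay below the median gene, against 19 in set2Δ and 21 in eaf3Δ. The 3 comparisons share the wild-type value. The middle of the list thus sat close to the median gene in both deletion strains and below it in H3K36A, with TIF35, NIP1 and GCD2 far below it in all 3 mutants.

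**Figure D1:**
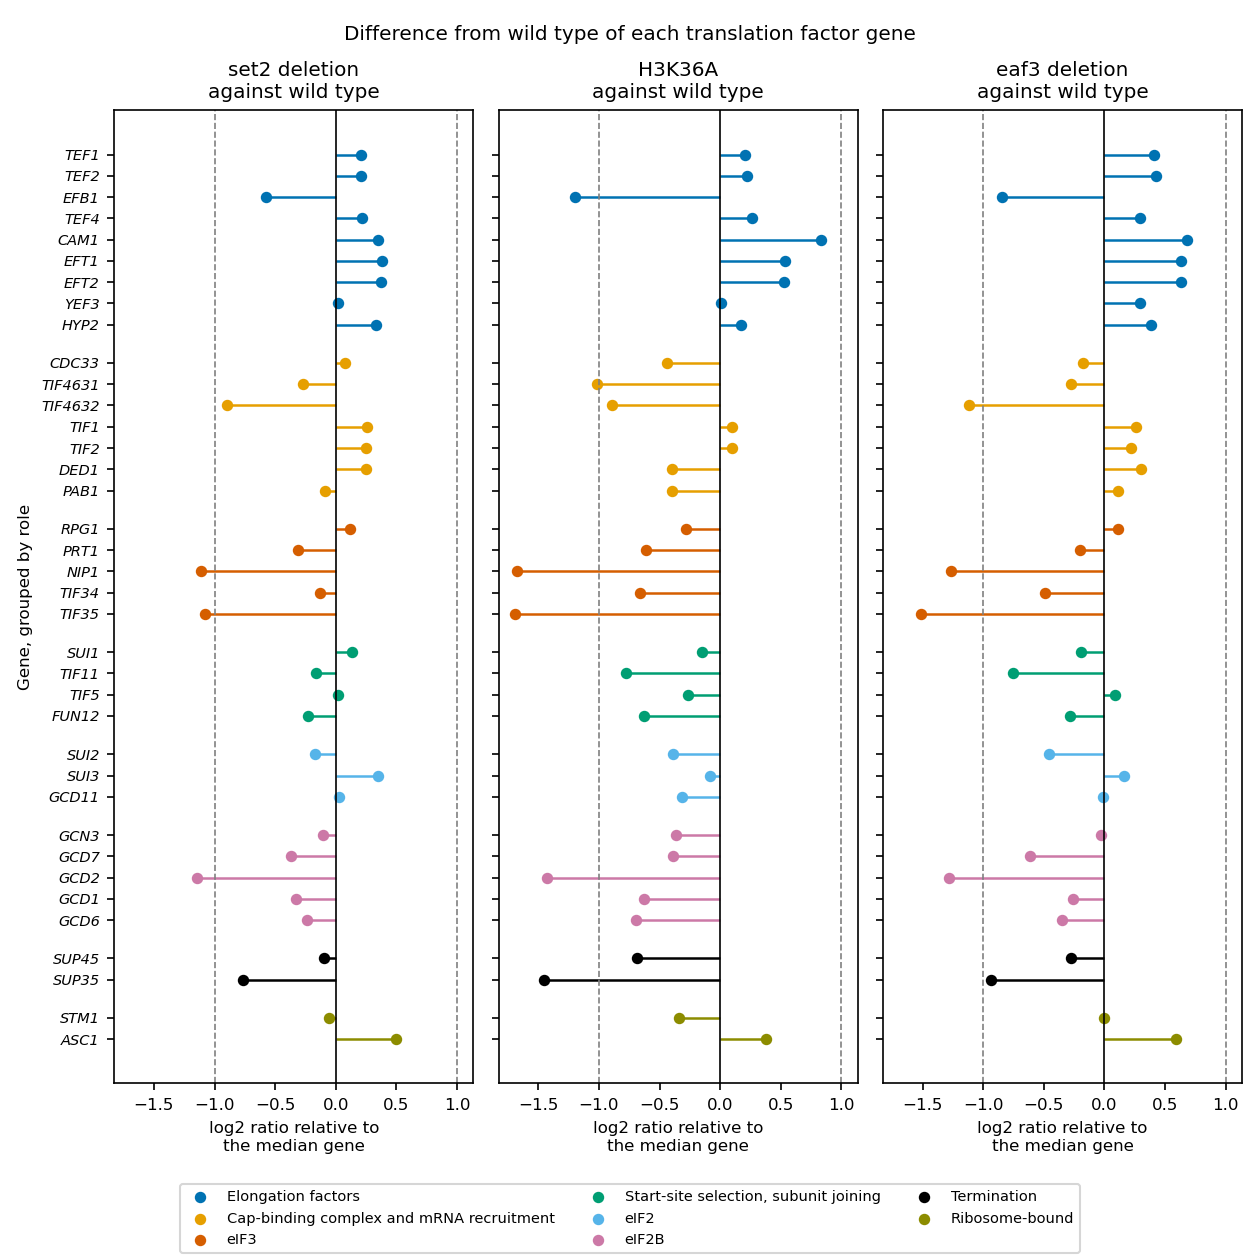
Log2 ratio to wild type relative to the median gene (horizontal axis) for each of the 37 genes, grouped and coloured by role, in set2Δ, H3K36A and eaf3Δ; each point is 1 gene from the authors' means and dashed lines mark a 2-fold difference. TIF35, NIP1 and GCD2 lie beyond the lower line in all 3 panels, and EFB1, TIF4631 and SUP35 do so in H3K36A.

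In wild type the highest RNA levels of the list were those of the elongation factor genes TEF1, TEF2, EFT2, EFT1 and YEF3. CAM1, also an elongation factor gene, had 297 RPKM in wild type, below ASC1 and STM1 among others. Relative to the median gene 8 of the 9 elongation factor genes lay above 0 in each mutant, EFB1 being the exception. Of the 3657 genes compared, 1828 did by construction. Without the near-identical pairs it was 4 of 5 in each mutant. Of all 207 genes at 1000 RPKM or more in wild type, 172, 138 and 146 lay above 0 in set2Δ, H3K36A and eaf3Δ. On the deposited scale 4, 3 and 6 of the 9 elongation factor genes lay above 0 in those mutants, and after quantile normalization 2, 2 and 4. They took 6.90%, 6.62% and 7.49% of the RPKM sum of all genes in those mutants, against 7.50% in wild type, and all 37 genes took 8.20%, 7.67% and 8.73%, against 8.95% in wild type. Each RPKM was also multiplied by gene length, which counts reads in place of transcripts. On that weighting the 37 genes took 16.6%, 16.2% and 17.7%, against 16.3% in wild type. That share covers only the 5128 genes with a reference length, which leaves out the small RNA genes. The order of the genotypes thus differs between the weighted and unweighted shares, and the effects of the weighting and of the genes left out were not separated. TEF1 (YPR080W, chromosome XVI 700594 to 701970, build R64, the same assembly as sacCer3) and TEF2 (YBR118W, chromosome II 477671 to 479047) encode the same protein, eEF1A, which brings aminoacyl-tRNA to the ribosome. TEF1 had 29028, 27094 and 30363 RPKM in set2Δ, H3K36A and eaf3Δ, against 29348 RPKM in wild type, where it ranked 3 among all genes in the table. TEF2 had 28931, 27450 and 30642 RPKM in the same mutants, against 29284 RPKM in wild type. Their relative log2 lay between 0.20 and 0.42 in the mutants, which on the deposited scale is between -0.12 and 0.07. The coding sequences are nearly identical, and the sources used here do not say how reads that map to both were counted, so the 2 rows cannot be taken as separate measurements.

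EFT1 (YOR133W) and EFT2 (YDR385W), another near-identical pair, encode eEF2, which moves the ribosome along the mRNA. EFT2 had 7138, 7440 and 7787 RPKM in set2Δ, H3K36A and eaf3Δ, against 6430 RPKM in wild type (111%, 116% and 121% of wild type), and EFT1 had the same percentages. The eEF2 rows were thus above wild type in every mutant on the deposited scale, while after quantile normalization EFT1 and EFT2 lay between -0.12 and 0. YEF3 (YLR249W), for eEF3, had 4698, 4363 and 5179 RPKM in the mutants in that order, against 5418 RPKM in wild type, at a relative log2 of 0.02, 0.00 and 0.29. HYP2 (YEL034W), the aerobic form of eIF5A, which helps ribosomes through stretches such as those rich in proline, had 2925, 2459 and 2777 RPKM, against 2720 RPKM in wild type.

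The exchange factor eEF1B, which recharges eEF1A with GTP, went 3 ways. EFB1 (YAL003W, chromosome I 142174 to 143160) encodes its catalytic alpha subunit and had 1746, 1068 and 1324 RPKM in set2Δ, H3K36A and eaf3Δ, against 3053 RPKM in wild type, or 57.2%, 35.0% and 43.4% of wild type. It was the elongation factor gene below the median gene in all 3 mutants, at a relative log2 of -0.58, -1.20 and -0.85. TEF4 (YKL081W), for a gamma subunit, had 2072, 2017 and 2000 RPKM in those mutants, against 2089 RPKM in wild type. CAM1 (YPL048W), for the other gamma subunit, had 324, 426 and 372 RPKM, against 297 RPKM in wild type, and its relative log2 of 0.35, 0.84 and 0.68 made it the highest of the 37 in H3K36A and eaf3Δ. The eEF1A rows together held 33.2, 51.1 and 46.1 times the RPKM of EFB1 in the 3 mutants, against 19.2 times in wild type. The order of the eEF1B genes also changed: EFB1 stood above TEF4 in wild type and below it in each mutant.

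EFB1, TEF4 and ASC1 are the members with a small nucleolar RNA gene inside them in the reference annotation, snR18, snR38 and snR24, which sit in introns of their hosts. Of these hosts EFB1 was low and the others were not: ASC1 (YMR116C), the yeast RACK1 protein of the small ribosomal subunit, had 5132, 4428 and 4989 RPKM in set2Δ, H3K36A and eaf3Δ, against 4245 RPKM in wild type. None of the 3 snoRNAs is among the genes listed. The sources used here do not say whether their reads or intron reads enter the host RPKM, and their part in the EFB1 value was not tested.

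**Figure D2:**
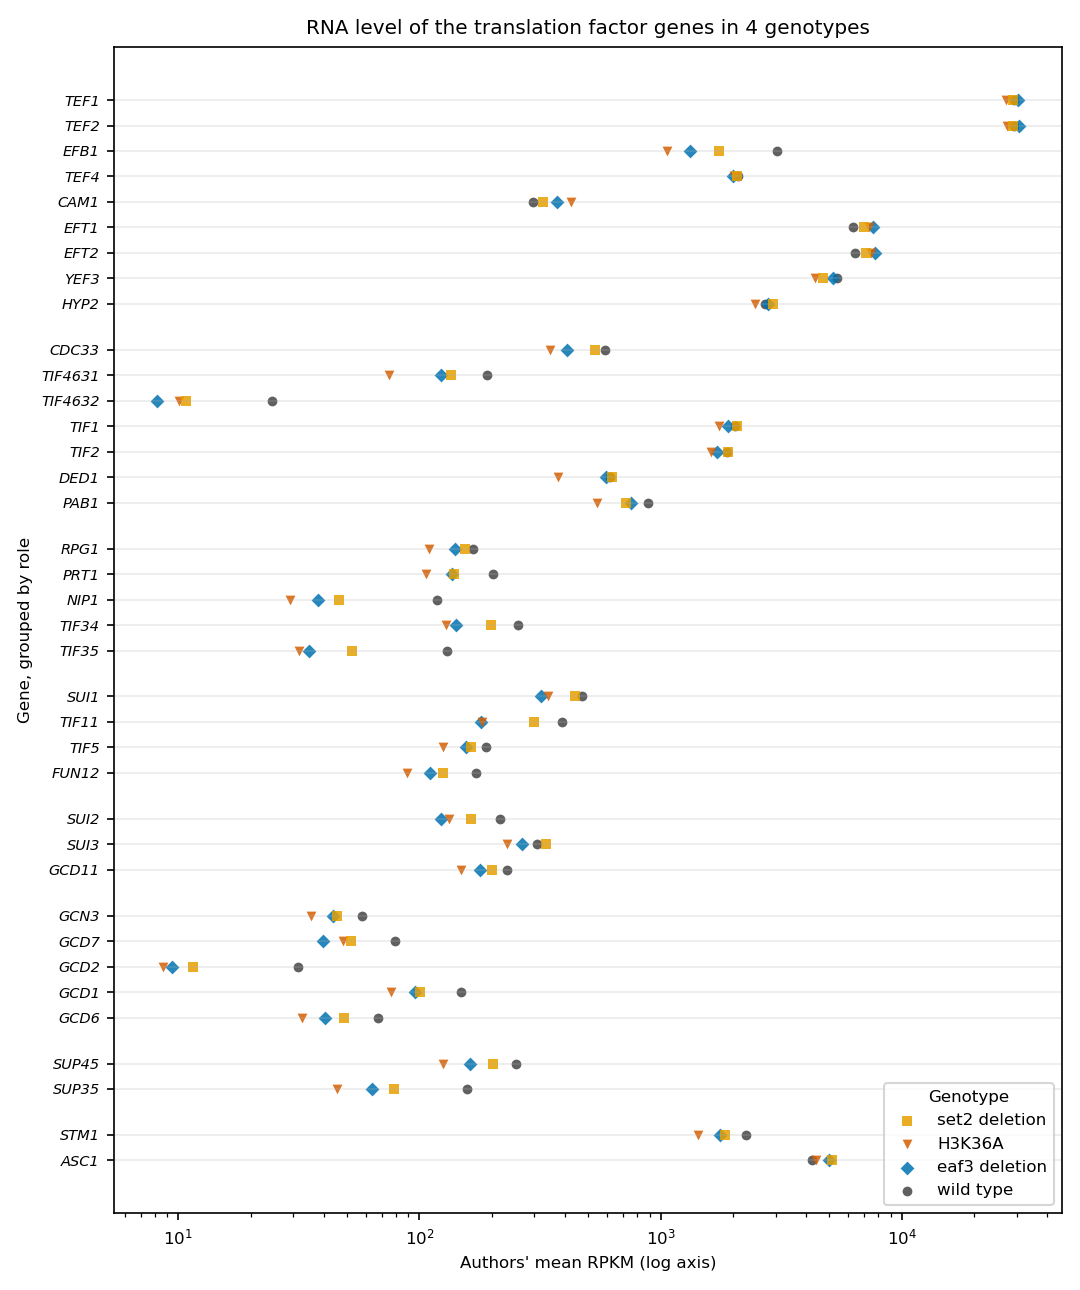
Authors' mean RPKM (horizontal, log axis) of the 37 genes in set2Δ (squares), H3K36A (triangles), eaf3Δ (diamonds) and wild type (circles), grouped by role; no replicate spread is available. Levels run from 8.19 RPKM for TIF4632 in eaf3Δ to 30642 RPKM for TEF2 in the same mutant, and most wild-type circles below 1000 RPKM lie to the right of the other symbols.

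Among the genes that recruit mRNA, the eIF4G gene TIF4632 was low in every mutant and TIF4631 in H3K36A, while the eIF4A genes were not low. TIF4631 (YGR162W), the main gene for the scaffold eIF4G, had 135, 74.8 and 123 RPKM in set2Δ, H3K36A and eaf3Δ, against 190.2 RPKM in wild type. H3K36A thus stood apart from the other mutants at 39.3% of wild type. The relative log2 of TIF4631 was -0.27, -1.02 and -0.27, where the lower quartile of all genes compared was -0.30, -0.48 and -0.42. Its paralog TIF4632 (YGL049C) had 10.8, 10.05 and 8.19 RPKM, against 24.6 RPKM in wild type, a relative log2 of -0.89, -0.89 and -1.12. The ratio of TIF4631 to TIF4632 was 12.5, 7.44 and 15.0 in the mutants in that order, against 7.74 in wild type. TIF1 (YKR059W) and TIF2 (YJL138C), near-identical genes for the helicase eIF4A, stayed between 86.0% and 102% of wild type.

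CDC33 (YOL139C), for the cap-binding protein eIF4E, had 534, 349 and 409 RPKM in set2Δ, H3K36A and eaf3Δ, against 591 RPKM in wild type. DED1 (YOR204W), for the helicase that opens structured leaders, had 626, 376 and 593 RPKM, against 618 RPKM in wild type, and PAB1 (YER165W) had 716, 544 and 751 RPKM, against 891 RPKM in wild type. For DED1 and PAB1 the H3K36A value was the lowest of the 4 genotypes, at 60.9% and 61.1% of wild type.

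The eIF3 genes were unequal. This complex binds the small subunit and holds the other initiation factors there. NIP1 (YMR309C, chromosome XIII 892988 to 895426), its c subunit, had 46.5, 29.0 and 37.9 RPKM in set2Δ, H3K36A and eaf3Δ, against 119 RPKM in wild type. TIF35 (YDR429C, chromosome IV 1324477 to 1325301), its g subunit, had 52.3, 31.7 and 34.9 RPKM, against 130.4 RPKM in wild type. Both were thus at 39.2% and 40.1% of wild type in set2Δ, 24.5% and 24.3% in H3K36A, and 31.9% and 26.8% in eaf3Δ, NIP1 first. Their relative log2 of -1.68 and -1.69 were the lowest of the 37 in H3K36A.

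RPG1 (YBR079C), the a subunit, had 154, 109.5 and 139.8 RPKM in set2Δ, H3K36A and eaf3Δ, against 166 RPKM in wild type, the closest to wild type of the eIF3 genes. PRT1 (YOR361C), the b subunit, had 139, 106 and 137 RPKM, against 202 RPKM in wild type. TIF34 (YMR146C), the i subunit and the partner of the g subunit, had 199, 129 and 141 RPKM, against 255 RPKM in wild type. All 5 genes were below wild type in the 3 mutants on the deposited scale, as the median gene was too. Relative to the median gene RPG1 was above 0 in the set2 and eaf3 deletions. The highest eIF3 gene had 4.27, 4.44 and 4.04 times the RPKM of the lowest in set2Δ, H3K36A and eaf3Δ, against 2.15 times in wild type, and TIF34 was the highest throughout.

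**Figure D3:**
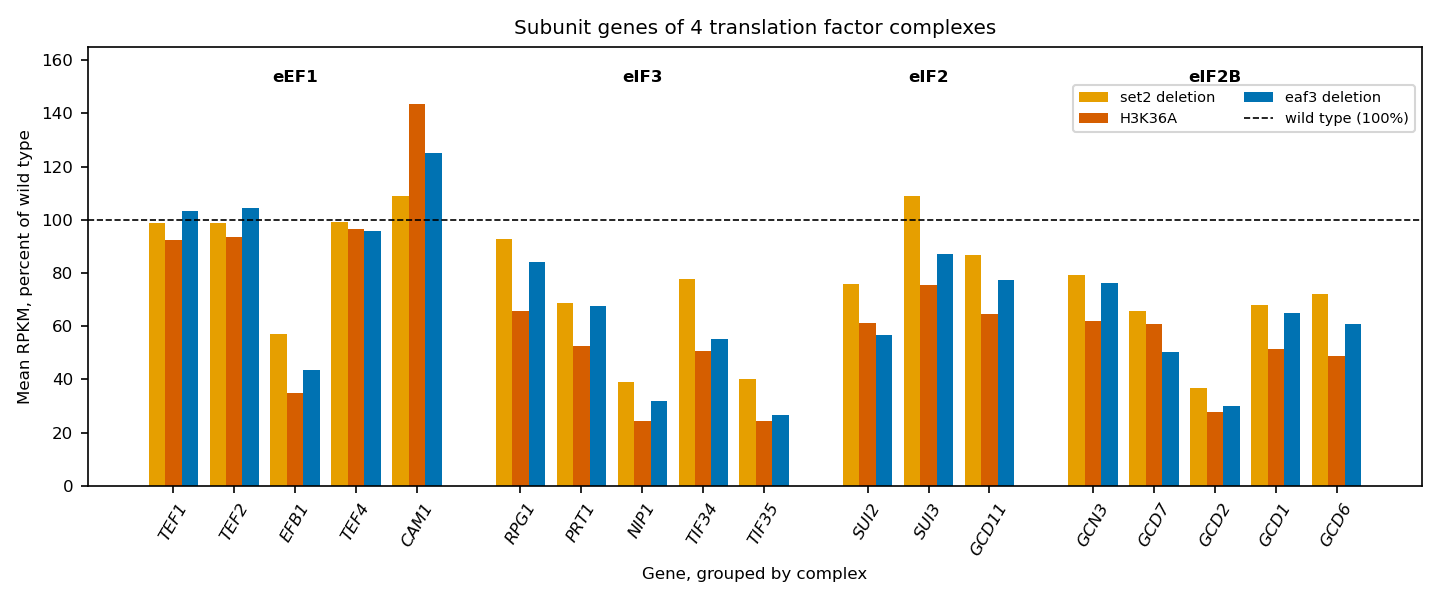
Mean RPKM as percent of wild type (vertical axis from 0, dashed line at 100%) for subunit genes of eEF1, eIF3, eIF2 and eIF2B in set2Δ, H3K36A and eaf3Δ; bars are authors' means without error. NIP1, TIF35 and GCD2 reach 24.3% to 40.1% in every mutant, while the other eIF3 and eIF2B genes lie between 48.7% and 92.7%, and CAM1 reaches 143% in H3K36A.

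The eIF2 genes were closer to one another. SUI2 (YJR007W), for the alpha subunit that Gcn2 phosphorylates, had 164, 132 and 123 RPKM in set2Δ, H3K36A and eaf3Δ, against 216 RPKM in wild type. SUI3 (YPL237W), for the beta subunit, had 334, 231 and 267 RPKM, against 306 RPKM in wild type, and was the eIF2 gene above wild type in set2Δ. GCD11 (YER025W), for the GTP-binding gamma subunit, had 201, 149 and 179 RPKM, against 231 RPKM in wild type. The median relative log2 of the 3 genes was 0.02, -0.31 and -0.01, lowest in H3K36A as for the whole list. SUI2 on its own was lower in eaf3Δ (-0.46) than in H3K36A (-0.39).

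All 5 genes of eIF2B were below the median gene in each mutant, although in eaf3Δ 1 of the 5 lay above 0 under quantile normalization and with the median taken over genes of at least 1 RPKM on average or at least 10 RPKM in wild type. GCD2 (YGR083C, chromosome VII 644860 to 646815), for the regulatory delta subunit, had 11.5, 8.64 and 9.39 RPKM in set2Δ, H3K36A and eaf3Δ, against 31.3 RPKM in wild type. At 36.7%, 27.6% and 30.0% of wild type it was the lowest of the 5, and it was also the gene of lowest level in the complex in every genotype. GCD6 (YDR211W), for the catalytic epsilon subunit, had 48.4, 32.7 and 40.8 RPKM, against 67.1 RPKM in wild type. GCD1 (YOR260W), the gamma subunit, had 101, 76.5 and 96.1 RPKM, against 148 RPKM in wild type. The other two were GCN3 (YKR026C), the alpha subunit that is needed for the response to amino acid starvation, and GCD7 (YLR291C), the beta subunit. GCN3 had 45.6, 35.6 and 43.9 RPKM against 57.7 RPKM in wild type, and GCD7 had 51.9, 48.0 and 39.7 RPKM against 78.9 RPKM in wild type, so GCD7 was lowest in eaf3Δ. The highest eIF2B gene had 8.75, 8.85 and 10.2 times the RPKM of the lowest in set2Δ, H3K36A and eaf3Δ, against 4.73 times in wild type.

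For start-site selection and subunit joining, TIF11 (YMR260C), which encodes eIF1A, had 299, 183 and 181 RPKM in set2Δ, H3K36A and eaf3Δ, against 391 RPKM in wild type. SUI1 (YNL244C), for eIF1, the gatekeeper of start codon choice, had 442, 341 and 321 RPKM, against 471 RPKM in wild type. In these 2 genes the H3K36A and eaf3 deletion values were close to each other and below set2Δ. TIF5 (YPR041W), for eIF5, which triggers GTP hydrolysis by eIF2, had 163, 126 and 157 RPKM against 189 RPKM in wild type. FUN12 (YAL035W), for eIF5B, the GTPase of subunit joining, had 126, 88.9 and 110.2 RPKM against 172 RPKM in wild type. All 4 were below wild type on the deposited scale in every mutant, as the median gene was too. Relative to the median gene 2, 0 and 1 of the 4 lay above 0 in set2Δ, H3K36A and eaf3Δ.

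The release factor genes differed from each other in the same way in each mutant. SUP35 (YDR172W, chromosome IV 808324 to 810381), for the GTPase eRF3, had 78.4, 45.4 and 63.7 RPKM in set2Δ, H3K36A and eaf3Δ, against 157 RPKM in wild type. SUP45 (YBR143C), for eRF1, which reads the stop codons, had 201, 125 and 162 RPKM, against 251 RPKM in wild type. The ratio of SUP45 to SUP35 was 2.57, 2.76 and 2.54 in the mutants, against 1.60 in wild type. SUP35 lay 2-fold lower in H3K36A on both scales, and in set2Δ, at 49.9% of wild type, it came just short of 2-fold on the deposited scale once 1 RPKM was added. STM1 (YLR150W), a protein that occupies and preserves ribosomes, had 1858, 1433 and 1759 RPKM in the mutants, against 2264 RPKM in wild type.

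Among these genes the ratio to wild type went with the wild-type level. Across the 37, Spearman's rho between wild-type RPKM and relative log2 was 0.73 in set2Δ, 0.67 in H3K36A and 0.74 in eaf3Δ, against 0.14, 0.01 and 0.08 across the 3657 genes compared. These are descriptions across genes that share libraries, near-identical pairs count as separate points, and the wild-type value is also the denominator of the ratio. With gene length rho over the 37 was -0.15, -0.08 and 0.05. A level of 1000 RPKM in wild type, chosen after the values were seen, divides the list into 12 genes with medians of 0.23, 0.19 and 0.34 and 25 genes with medians of -0.16, -0.61 and -0.27, in the order set2 deletion, H3K36A and eaf3 deletion. All 207 genes at or above that level had medians of 0.31, 0.21 and 0.30, close to those of the 12 factor genes, while the 3450 genes below it had -0.02 in each mutant. In H3K36A 24 of the 25 lay below the median gene, CAM1 being the exception, against 1759 of the 3450 genes. EFB1 and STM1 were the abundant factor genes below the median gene in that mutant.

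**Figure D4:**
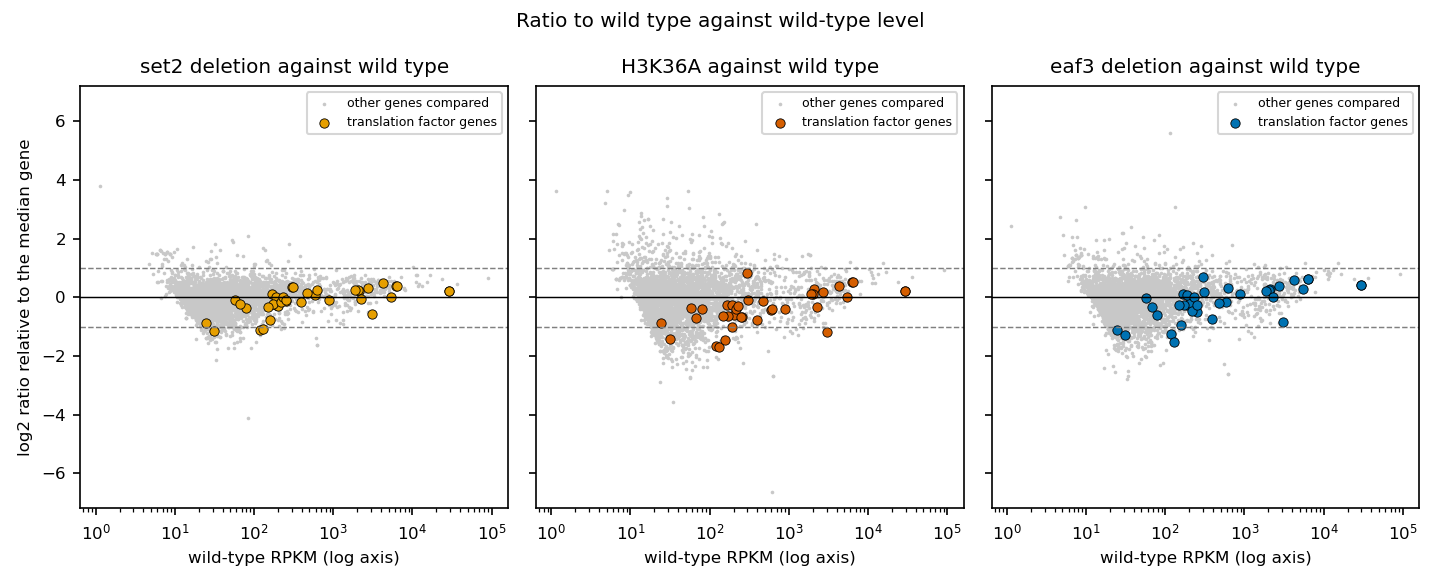
Log2 ratio to wild type relative to the median gene (vertical axis) against wild-type RPKM (horizontal, log axis) in set2Δ, H3K36A and eaf3Δ; coloured points are the 37 factor genes, grey points the other genes compared, and dashed lines mark a 2-fold difference. The factor genes above 1000 RPKM lie near or above 0 apart from EFB1 and, in H3K36A, STM1, and in H3K36A those below 1000 RPKM lie below 0 apart from CAM1.

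Set directly against each other, the mutants differed in degree. No factor gene was 2-fold apart between any 2 mutants relative to the median gene. Among all genes, 2.65% were at least 2-fold higher and 0.793% lower in H3K36A than in set2Δ, 0.656% higher and 0.793% lower in eaf3Δ than in set2Δ, and 0.793% higher and 2.82% lower in eaf3Δ than in H3K36A. Relative to the median gene 30 of the 37 were lower in H3K36A than in set2Δ, where 50% of all genes are by construction, with a median of -0.27. TIF4631 had the lowest value of these, -0.73, and CAM1 the highest, 0.50. Of the 37, 32 were higher in eaf3Δ than in H3K36A (50% of all genes by construction), with a median of 0.24, and TIF4631 and DED1 led at 0.74 and 0.68. Between the eaf3 and set2 deletions 18 of the 37 were lower (50% by construction) and the median was 0.00. On the deposited scale H3K36A had the lowest RPKM of the 4 genotypes for 27 of the 37, against 38.4% of all genes. The 3 genes at least 2-fold below wild type in all mutants compare with 2.6% of all genes.

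The cytosolic ribosomal protein genes served as a related set, with 134 of them listed. The factor genes had median relative log2 of -0.06, -0.39 and -0.03 in set2Δ, H3K36A and eaf3Δ, against 0.18, -0.08 and -0.0020 for the ribosomal protein genes. Of the 134 ribosomal protein genes 0, 6 and 3 were at least 2-fold lower in those mutants, against 2.9%, 9.68% and 7.03% of all genes compared. RPL38, RPL39 and RPS30A were the 3 in eaf3Δ. RPL38, the lowest in H3K36A and eaf3Δ, had 417, 272 and 252 RPKM in set2Δ, H3K36A and eaf3Δ, against 865 RPKM in wild type. RPL39, the lowest in set2Δ, had 563, 456 and 407 RPKM in those mutants, against 1216 RPKM in wild type. Between H3K36A and set2Δ the factor genes had a median of -0.27 and the ribosomal protein genes -0.25, with 125 of the 134 lower in H3K36A. Between eaf3Δ and set2Δ the factor genes had a median of 0.00 and the ribosomal protein genes -0.22. None of these differences between lists was tested.

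Of 21 other translation factor genes, 20 had a row and 17 were compared. Their medians were -0.10, -0.24 and -0.02 in set2Δ, H3K36A and eaf3Δ. Of the 17, 0, 1 and 1 were at least 2-fold lower, against 2.9%, 9.68% and 7.03% of all genes compared. At least 2-fold higher were 0, 1 and 0, against 1.83%, 6.95% and 3.55% of all genes. The lower gene was TMA20 (YER007C-A), for a ribosome-binding protein, with 32.2, 19.5 and 21.0 RPKM in the mutants, against 63.2 RPKM in wild type. The higher gene was ANB1 (YJR047C), the form of eIF5A made at low oxygen, with 12.1, 30.5 and 9.91 RPKM, against 9.72 RPKM in wild type. HYP2, its aerobic counterpart, therefore stood at 242, 80.7 and 280.3 times ANB1 in the mutants, against 280.0 times in wild type. The genes are similar enough in sequence that shared reads are possible.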

How the data were processed

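RNA from 8 libraries, 2 for each of 4 genotypes, was used; the 9 genomic DNA libraries of the series were not analysed here. The authors deposited RPKM values that are averages per genotype, per the file headers. CASAVA, TopHat2 2.0.14 and the build sacCer3 are named in the submitters' processing notes; the sources used here do not give the RPKM tool, the gene models, the use of strand or the treatment of reads with several matches. The 2 rows named R, which name no gene (0.0032% of the wild-type RPKM sum), were left out, and 3 lines had been emptied for this work. Symbols and coordinates came from RefSeq R64 by systematic name (5128 of 5326 matched, 37 of the 37 factor genes). Ribosomal protein genes were taken by symbol (RPL, RPS or RPP with a number), leaving out RPP1, which that pattern also matches and which encodes a subunit of RNase P. Ratios were log2((mutant + 1)/(wild type + 1)), centred on the median of genes with a mean of at least 10 RPKM, and called beyond 2-fold with no test, since averages hold no replicate spread. Percentages of wild type use no pseudocount. The calculation was tested on simulated data. The members and lists were chosen with earlier results of these data known; all 37 could be named, and of other lists up to 4 genes per direction beyond 2-fold or else the highest and lowest. Python 3.11.15, pandas 2.3.3 and scipy 1.17.1 were used. Alternatives were a pseudocount of 0.1 or 5, no centring, quantile normalization, rescaling without small RNA genes, 2 other minimum levels and leaving out near-identical pairs.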

Additional observations from a re-analysis of the deposited data

How the results depend on the processing

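The count of factor genes at least 2-fold lower in eaf3Δ was 4 relative to the median gene, 7 on the deposited scale and 7 after rescaling without small RNA genes. The shares of all genes compared rose too, at 7.03%, 16% and 14.6%. Rescaling without small RNA genes also gave 5 instead of 3 in set2Δ, where the shares of all genes were 6.8% and 2.9%. Both alternatives are uncentred, so the general shift of the mutants enters them. In the other settings these counts stayed within 1.5 times, from 2 to 4 in set2Δ, 5 to 9 in H3K36A and 3 to 5 in eaf3Δ. The shares of all genes there ran from 1.39% to 6.43%, 6.51% to 18% and 4.46% to 8.53%. No factor gene was 2-fold higher under any setting run. NIP1 was at least 2-fold lower in all 3 mutants under each setting, TIF35 under each but the minimum mean of 1 RPKM, and GCD2 under each but a pseudocount of 5 and quantile normalization. The list median stayed below 0 in H3K36A (-0.26 to -0.70). In the set2 and eaf3 deletions it was slightly above 0 with a minimum mean of 1 RPKM (0.03 and 0.10) or a wild-type minimum of 10 RPKM (0.01 and 0.07), and -0.11 and -0.20 without the near-identical pairs. No paired analysis was possible because the columns are averages that carry no replicate, and leaving out a replicate was not possible either. The number of reads is unknown, so the error of low values such as those of GCD2 and TIF4632 is unknown too.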

Other observations

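Other gene groups that serve translation were described in the same way. The 21 cytosolic aminoacyl-tRNA synthetase genes, which charge tRNAs for elongation, had median relative log2 of -0.06, -0.28 and -0.04 in set2Δ, H3K36A and eaf3Δ. In those mutants 1, 2 and 1 of the 21 were at least 2-fold lower, against 2.9%, 9.68% and 7.03% of all genes compared. SES1, the seryl-tRNA synthetase (YDR023W), was the member beyond 2-fold in all 3 mutants, with 88.6, 66.7 and 68.4 RPKM, against 222 RPKM in wild type. CRS1 (YNL247W), for cysteine, had 34.3, 28.5 and 33.5 RPKM, against 79.8 RPKM in wild type, and passed in H3K36A.

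None of the 6 genes for chaperones of the nascent chain was beyond 2-fold, with medians of 0.16, 0.10 and 0.29, a highest value for EGD1 (1209, 1027 and 1172 RPKM, against 1048 RPKM in wild type) and a lowest for SSZ1 (552, 438 and 478 RPKM, against 668 RPKM in wild type). None of the 8 genes for enzymes that modify eIF5A and eEF2 was beyond 2-fold either, with medians of -0.06, -0.16 and 0.07. Of all genes compared, 2.9%, 9.68% and 7.03% were at least 2-fold lower and 1.83%, 6.95% and 3.55% at least 2-fold higher. LIA1, which completes the hypusine of eIF5A, came nearest in H3K36A, with 277, 139 and 232 RPKM in set2Δ, H3K36A and eaf3Δ, against 338 RPKM in wild type.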
